A study of Rattus norvegicus with 21 samples.

Results

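The genes described here encode proteins of the mitochondrial ribosome in cultured rat astrocytes. They were chosen by symbol, as the rows of the poly(A) gene count table that begin with Mrpl or Mrps followed by a number and hold at least 30 counts over 9 libraries. They number 66 of 17311 genes, of which 38 are named for the large subunit (Mrpl) and 28 for the small subunit (Mrps). Of 69 symbols with that form, Mrpl30 had 11 counts in all, and Mrpl36 and Mrpl53 were listed at 0. Inside the minimum, the lowest members were Mrpl1 with 313 counts and Mrpl47 with 3583 counts. The 66 members lay on 17 chromosomes as far as RefSeq placed them, took between 0.410 and 0.522% of each library's counts, and all entered the tests.

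Mitochondria keep their own ribosomes, which translate the few messages of mitochondrial DNA into membrane subunits of the respiratory chain and of ATP synthase. The ribosomal RNAs come from mitochondrial DNA, while every ribosomal protein is encoded in the nucleus, made in the cytosol and imported. The large subunit forms peptide bonds and the small subunit decodes the message, and many of their proteins have no counterpart in bacteria. Roles named below come from work on bacterial, porcine and human ribosomes.

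The study measured poly(A) RNA of primary astrocytes from newborn Sprague-Dawley rats, at passage 2 or 3, after transfection with small interfering RNA (siRNA) by lipid carrier. The 3 groups of 3 libraries had received TDP-43 siRNA and ATP, TDP-43 siRNA alone, or a scrambled siRNA. TDP-43, encoded by Tardbp, binds RNA and controls its splicing and stability, and ATP outside cells acts as a signal on purinergic receptors. How much ATP was given, and for how long, the sources used here do not state. One TDP-43 siRNA condition is named and none with TDP-43 restored, so effects of the siRNA on other transcripts cannot be told apart from loss of TDP-43. Cells given ATP but no knockdown were not analysed here. The labels do not tell whether the replicates of a group came from different dishes or pups. The p-values below therefore describe variation among these libraries alone, and that variation may be technical.

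Libraries held between 11485173 and 40286765 gene counts, the fewest in scrambled replicate 2 and the most in scrambled replicate 1. Tardbp stood at 24.1 to 28.8 CPM with TDP-43 siRNA and ATP and at 20.7 to 29.6 CPM with TDP-43 siRNA, against 158 to 179 CPM with scrambled siRNA (CPM are counts per 1000000, the library total being scaled by TMM factors, which even out the bulk of genes between libraries). All 11 astrocyte markers looked up were detected, Gfap at 2004 to 2875 CPM over the 9 libraries. Of the 3 scrambled libraries, replicate 1 stood apart: per degree of freedom, chi-square between it and the other 2 was 63.0 and 58.5, against 11.02 to 25.99 for all other pairs within groups. Taken on raw counts, this measure also grows with depth, and replicate 1 was the deepest library. In that library the Mrpl members had a median log2 difference of -0.30 and the Mrps members one of -0.31 from the mean of the other 2 scrambled libraries, against 0.033 for all tested genes. It gave the lowest scrambled level for 25 of 38 Mrpl and 22 of 28 Mrps members, so counts without it are given below.

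Summed over the members, the mitochondrial ribosomal messages were lower in both knockdown groups than in scrambled replicates 2 and 3, and scrambled replicate 1 lay close to the knockdown libraries. The Mrpl members summed to 2650, 2385 and 2275 CPM with TDP-43 siRNA and ATP, to 2909, 2856 and 2887 CPM with TDP-43 siRNA, and to 2921, 3632 and 3415 CPM with scrambled siRNA. The Mrps members summed to 1688, 1547 and 1516 CPM with TDP-43 siRNA and ATP, to 1912, 1876 and 1881 CPM with TDP-43 siRNA, and to 1726, 2217 and 2136 CPM with scrambled siRNA. With TMM factors, the libraries with ATP lay below all others in both sums. The Mrps sums with TDP-43 siRNA overlapped the scrambled range, while the Mrpl sums lay narrowly below it (at most 2909 CPM, against 2921 CPM in scrambled replicate 1). Unscaled shares of gene counts, taken for both subunits together, kept neither separation. They were 0.452, 0.424 and 0.410% with TDP-43 siRNA and ATP. With TDP-43 siRNA they were 0.493, 0.485 and 0.493%, against 0.428, 0.522 and 0.513% with scrambled siRNA. Group means for Mrpl were 2437 ± 192 CPM with TDP-43 siRNA and ATP and 2884 ± 26.9 CPM with TDP-43 siRNA, against 3323 ± 364 CPM with scrambled siRNA (SD, n = 3 each). The Mrps means were 1584 ± 91.4 CPM with TDP-43 siRNA and ATP and 1890 ± 19.5 CPM with TDP-43 siRNA, against 2026 ± 263 CPM with scrambled siRNA (SD, n = 3 each). In bulk samples such as these, fewer cells of a type and less RNA per cell cannot be told apart.

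**Figure D1:**
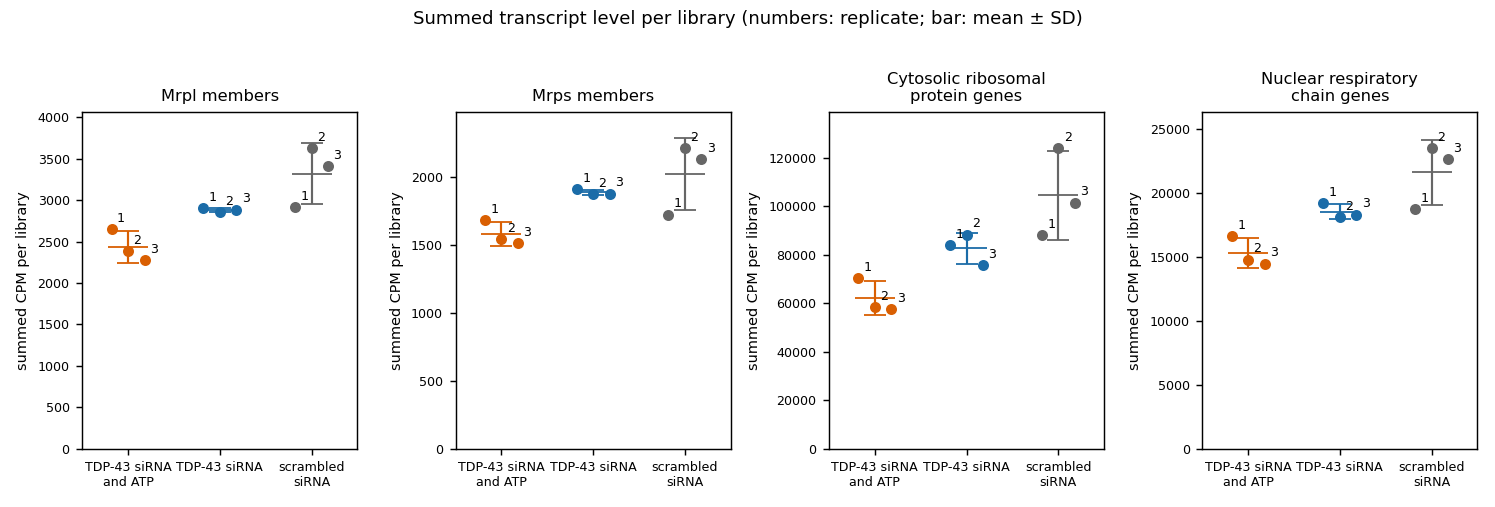
Summed CPM (y axis) of the Mrpl members, the Mrps members, the cytosolic ribosomal protein genes and the nuclear respiratory chain genes in each library (points), with group mean ± SD (bars), for TDP-43 siRNA and ATP, TDP-43 siRNA, and scrambled siRNA. With the TMM factors used here, the 3 libraries with ATP are the lowest in all 4 panels. Scrambled replicate 1 is the lowest scrambled library in all 4. Unscaled, the Mrpl and Mrps members took 0.452% of gene counts in ATP replicate 1, against 0.428% in scrambled replicate 1.

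The ratio of the 2 subunits' sums was somewhat lower with knockdown. Mrpl over Mrps was 1.570, 1.542 and 1.501 with TDP-43 siRNA and ATP, and 1.521, 1.522 and 1.535 with TDP-43 siRNA, against 1.692, 1.638 and 1.599 with scrambled siRNA. The 6 knockdown libraries all lay below the 3 scrambled ones, and the 2 knockdown groups overlapped. Members also varied more between the scrambled libraries than elsewhere: the median coefficient of variation was 8.44% (Mrpl) and 6.35% (Mrps) with TDP-43 siRNA and ATP, 5.64% and 6.65% with TDP-43 siRNA, and 16.0% and 14.4% with scrambled siRNA.

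After knockdown without ATP, some of the large subunit's messages were lower, and most members of either subunit did not pass the test. Of 38 Mrpl members 12 fell and 0 rose in edgeR's quasi-likelihood test (Benjamini-Hochberg adjusted over 12096 genes, threshold 0.05), where 18.2% of all tested genes fell and 16.2% rose. Of 28 Mrps members 4 fell (14.3%) and 3 rose (10.7%), both shares below those of all tested genes. The 16 falls were 24.2% of the members and the 3 rises 4.55%. The median log2 fold change was -0.16 for Mrpl and 0.029 for Mrps, against 0.012 for all tested genes. Scaled by total counts these medians were 0.0098, 0.20 and 0.18, so the Mrpl median lay below that of all genes under both scalings but its sign flipped. The Mrpl rise count of 0 was also 0 in DESeq2, and 1 Mrpl member had a positive fold change at an unadjusted p under 0.05. The 2 subunits' counts were not tested against each other.

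Mrps18a carried the lowest adjusted p of all members. It is 1 of 3 mammalian relatives of a bacterial small-subunit protein, and in mammalian structures it sits in the large subunit despite its name. Mrps18a stood at 62.6, 64.6 and 53.7 CPM with TDP-43 siRNA and ATP, and at 64.3, 60.1 and 70.1 CPM with TDP-43 siRNA, against 112, 115 and 114 CPM with scrambled siRNA. The 3 scrambled libraries were nearly equal, replicate 1 included, and every knockdown library lay well below them. Its log2 fold change was -0.81 (SE 0.10, edgeR adjusted p = 2.58e-05) with TDP-43 siRNA and -0.91 (SE 0.10, edgeR adjusted p = 8.19e-06) with ATP added. Without ATP its relatives moved otherwise. Mrps18b, a small-subunit protein, rose with TDP-43 siRNA to 78.9, 78.9 and 77.6 CPM, against 64.0, 59.5 and 58.8 CPM with scrambled siRNA (log2 0.37, edgeR adjusted p = 0.00765). Mrps18c, the relative that takes the bacterial protein's place, gave a log2 fold change of 0.021 without ATP (edgeR adjusted p = 0.924). With ATP, Mrps18c fell by 0.53, as Mrps18a did, a call lost with total-count scaling (-0.31). Mrps18b gave 0.17 with ATP and did not pass, but passed with total-count scaling (0.39).

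Next in size among the called falls after knockdown were those of Mrpl41, Mrpl18 and Mrpl48, ahead of Mrps34 and Mrps14. Mrpl41, a protein of the mitochondrial large subunit with no bacterial counterpart, stood at 80.8, 67.1 and 67.4 CPM with TDP-43 siRNA and ATP, and at 83.9, 82.3 and 81.6 CPM with TDP-43 siRNA, against 102, 165 and 128 CPM with scrambled siRNA. All 6 knockdown libraries were below all scrambled ones, and the knockdown libraries without ATP were almost equal while the scrambled ones spread widely. Its log2 fold change was -0.67 with TDP-43 siRNA (SE 0.14, edgeR adjusted p = 0.00194). Mrpl18, of the central protuberance where the subunits meet, had 58.5, 68.1 and 54.6 CPM with TDP-43 siRNA, against 69.1, 105 and 111 CPM with scrambled siRNA (log2 -0.65, edgeR adjusted p = 0.0051). Mrpl48, of the same region, had 86.7, 94.0 and 86.7 CPM with TDP-43 siRNA, against 102, 154 and 146 CPM with scrambled siRNA (log2 -0.59, edgeR adjusted p = 0.00363). In both, scrambled replicate 1 was the lowest scrambled library and still lay above the knockdown range.

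Mrpl3 has a bacterial relative that reaches towards the site where peptide bonds form. It had 70.7, 64.3 and 77.8 CPM with TDP-43 siRNA, against 111, 96.5 and 86.7 CPM with scrambled siRNA. In contrast to most members, Mrpl3 was highest in scrambled replicate 1. Its log2 fold change was -0.47 (SE 0.11, edgeR adjusted p = 0.00527), and it no longer passed when scaled by total counts (-0.30). Mrpl27, a relative of the bacterial protein that contacts the tRNA end at the site of peptide bond formation, fell by 0.45 (edgeR adjusted p = 0.00347). Mrpl16, which helps position tRNA in the bacterial ribosome, fell by 0.37 (edgeR adjusted p = 0.0426), but with 1 scrambled library inside the knockdown range, and it passed in 1 of the 9 fits that each left out a library, that without scrambled replicate 1. Mrpl45, which anchors the ribosome to the inner membrane at the tunnel exit, fell by 0.32 (edgeR adjusted p = 0.017), and did not pass without TDP-43 siRNA replicate 1 or with total-count scaling. The remaining Mrpl falls were those of Mrpl49, Mrpl50, Mrpl32, Mrpl43 and Mrpl51, between -0.46 and -0.33, of which Mrpl49 passed in all 9 such fits, while Mrpl32 and Mrpl50 did not pass without scrambled replicate 2 or TDP-43 siRNA replicate 3. With total-count scaling Mrpl49 (-0.26), Mrpl50 (-0.29), Mrpl32 (-0.26) and Mrpl16 (-0.20) did not pass. Mrpl43 and Mrpl51 are named only to complete the count, after their values were seen.

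Fallen small-subunit members, apart from Mrps18a, were Mrps34, Mrps14 and Mrps7. Mrps14, a protein of the subunit's head with a bacterial relative, had 105, 98.1 and 92.2 CPM with TDP-43 siRNA, against 112, 149 and 166 CPM with scrambled siRNA (log2 -0.53, SE 0.13, edgeR adjusted p = 0.00515). Mrps34, found in mitochondrial but not bacterial ribosomes, had 73.3, 66.1 and 73.7 CPM with TDP-43 siRNA, against 85.0, 122 and 109 CPM with scrambled siRNA (log2 -0.56, edgeR adjusted p = 0.00238). The groups did not overlap for either gene, although scrambled replicate 1 was again the lowest scrambled library. Mrps7, another head protein with a bacterial relative, fell by 0.37 (edgeR adjusted p = 0.0191), and did not pass without scrambled replicate 2, without TDP-43 siRNA replicate 1, without TDP-43 siRNA replicate 2 or with total-count scaling (-0.20).

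The 3 risen members were all of the small subunit. Mrps10, a head protein with a bacterial relative, had 21.05, 15.7 and 16.5 CPM with TDP-43 siRNA and ATP, and 20.7, 24.7 and 20.6 CPM with TDP-43 siRNA, against 11.7, 13.3 and 15.5 CPM with scrambled siRNA. Both knockdown groups lay above the scrambled one, narrowly so with ATP. Its log2 fold change was 0.71 without ATP (SE 0.16, edgeR adjusted p = 0.00295) and 0.41 with ATP, where it did not pass (SE 0.16, edgeR adjusted p = 0.0568). Mrps22, a small-subunit protein specific to mitochondria, had 54.3, 52.4 and 52.8 CPM with TDP-43 siRNA and ATP, and 57.9, 47.6 and 55.8 CPM with TDP-43 siRNA, against 37.9, 44.7 and 39.5 CPM with scrambled siRNA. Every knockdown library was above every scrambled one, with log2 fold changes of 0.41 (edgeR adjusted p = 0.00949) without ATP and 0.39 (edgeR adjusted p = 0.0109) with it. The call without ATP was lost when TDP-43 siRNA replicate 1 was left out.

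**Figure D2:**
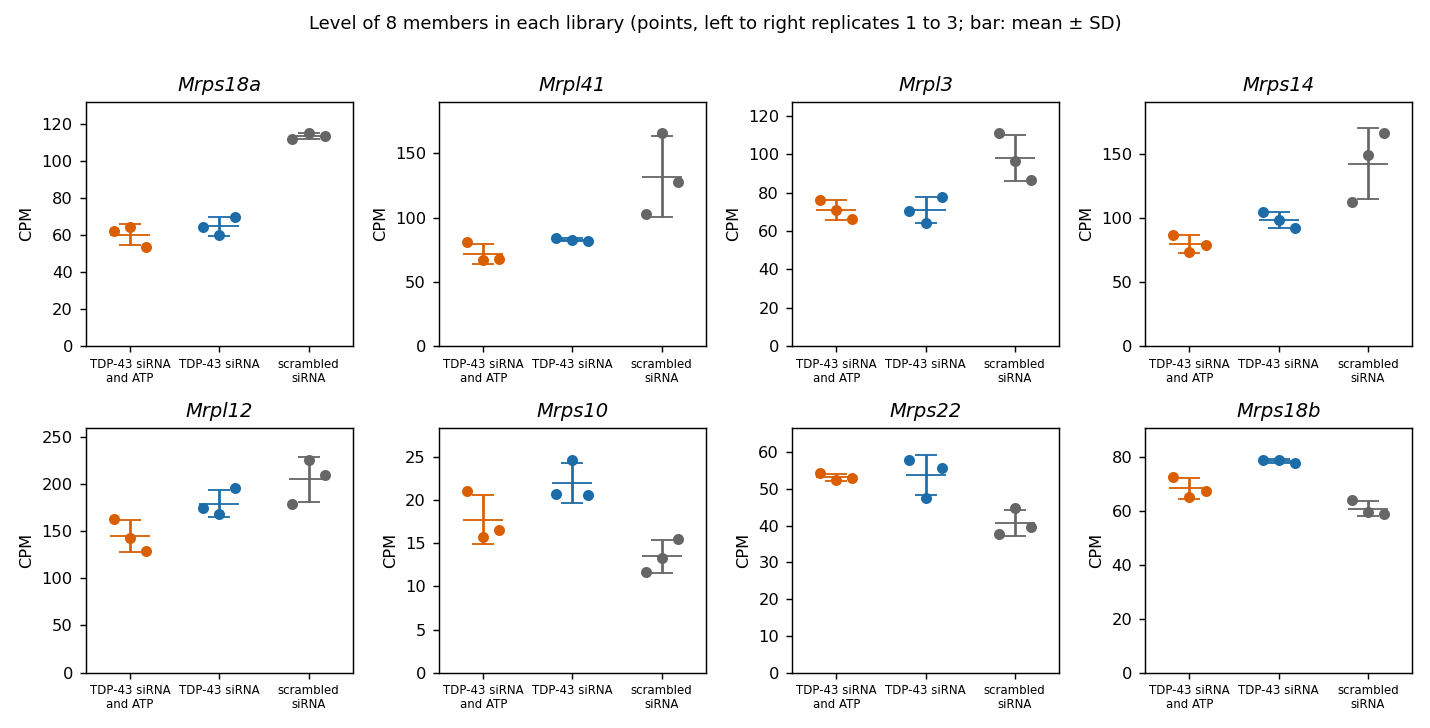
CPM (y axis, from 0) of 8 members in each library (points) with group mean ± SD (bars). Mrps18a, Mrpl41, Mrpl3 and Mrps14 are lower in all 6 knockdown libraries than in any scrambled one, Mrpl12 is lower with ATP, and Mrps10, Mrps22 and Mrps18b are higher with TDP-43 siRNA.

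Left-out libraries changed these counts. Of the 19 members called after knockdown, 11 were called in all 9 fits that left out 1 library. Without scrambled replicate 1, 17 Mrpl members fell and 1 rose, and 11 Mrps members fell and 3 rose, so 28 of 66 fell where 19.3% of all tested genes did, and the Mrps median turned to -0.028. Without TDP-43 siRNA replicate 3, 7 Mrpl members fell. Without scrambled replicate 3, 5 Mrps members rose, and without scrambled replicate 2 or 3, 1 Mrpl member rose. With libraries scaled by total counts, 4 Mrpl members fell and 1 rose, and 3 Mrps members fell and 9 rose, while over all tested genes 3427 rose and 1436 fell in place of 1956 and 2198.

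Libraries of the TDP-43 siRNA group all lay below the scrambled ones for 16 of 66 members and all above for 6, against 20.9% and 20.7% of all tested genes. Negative fold changes were found for 28 of 38 Mrpl and 13 of 28 Mrps members. Mrpl1 had the second most negative fold change (log2 -0.77, SE 0.51, edgeR adjusted p = 0.264), but at 0.576 to 3.80 CPM it is the only member averaging under 10 CPM.

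Promoters are shown for the 3 members called after knockdown with the lowest adjusted p among those with a window in the RefSeq promoter table (build GRCr8, 250 bases before to 50 after the start), since 2 of them fell and 1 rose. Letters are those of the coding strand, 5′ to 3′, and capitals mark matches to 2 motifs, CCGGAAG (bound by ETS factors such as GABP) and AAGATGGC (bound by YY1), both factors known to act at nuclear genes for mitochondrial proteins. The window of Mrps18a is chr9:22367331-22367630 on the minus strand, that of Mrpl41 chr3:28179706-28180005 on the minus strand, and that of Mrps10 chr9:21122404-21122703 on the minus strand.
Mrps18a: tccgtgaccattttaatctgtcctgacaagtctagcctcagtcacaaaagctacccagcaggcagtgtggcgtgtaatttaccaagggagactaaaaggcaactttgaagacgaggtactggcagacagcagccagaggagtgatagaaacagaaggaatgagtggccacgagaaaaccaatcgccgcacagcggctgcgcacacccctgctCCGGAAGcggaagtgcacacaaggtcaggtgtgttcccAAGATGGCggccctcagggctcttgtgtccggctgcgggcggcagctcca
Mrpl41: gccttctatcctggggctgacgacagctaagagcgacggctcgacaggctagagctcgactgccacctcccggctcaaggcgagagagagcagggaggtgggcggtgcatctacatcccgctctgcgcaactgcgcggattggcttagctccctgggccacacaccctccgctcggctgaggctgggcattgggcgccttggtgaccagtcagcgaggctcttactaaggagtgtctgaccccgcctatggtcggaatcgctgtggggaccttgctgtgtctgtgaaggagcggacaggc
Mrps10: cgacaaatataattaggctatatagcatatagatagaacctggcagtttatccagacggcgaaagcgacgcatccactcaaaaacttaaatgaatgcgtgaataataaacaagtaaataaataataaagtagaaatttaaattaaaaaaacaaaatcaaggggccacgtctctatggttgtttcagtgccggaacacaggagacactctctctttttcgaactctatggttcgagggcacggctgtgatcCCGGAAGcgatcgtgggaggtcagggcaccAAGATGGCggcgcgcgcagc
In Mrps18a, which fell, CCGGAAG begins at position -38, counted from the start as position 1 with no position 0, and AAGATGGC at position 1. In Mrps10, which rose, CCGGAAG begins at position 1 and AAGATGGC at position 31, while the window of Mrpl41, which fell, holds neither.

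Across the gene group, 51 of 66 members had a promoter in that table, with 53 entries. On either strand, AAGATGGC was found in 24.5% of these windows, against 5.16% of windows of all tested protein-coding genes and 3.17% of all windows. CCGGAAG was found in 28.3% of the members' windows, against 16.3% and 8.75%. The motif bound by NRF1, another activator of such genes, was found in 13.2%, against 9.42% and 4.25%. None of these motifs contains another, and the letters AAGATGGC include a start codon. The members' windows had a median GC content of 55.7%, against 61.0% for tested genes. A match is a description of the letters, not a binding site, and no test was made.

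Head-to-head arrangement, in which the window overlapped that of a gene on the other strand, was found for 26.4% of member windows, against 13.8% for tested genes. A pair of members, Mrpl46 and Mrps11, faced each other in this way. Mrpl46, of the central protuberance, had 36.6, 34.5 and 28.8 CPM with TDP-43 siRNA and ATP, and 33.6, 34.4 and 38.2 CPM with TDP-43 siRNA, against 43.8, 56.0 and 38.3 CPM with scrambled siRNA. Mrps11, which has a bacterial relative in the small subunit's platform, had 51.2, 47.8 and 42.5 CPM with TDP-43 siRNA and ATP, and 61.6, 71.3 and 60.3 CPM with TDP-43 siRNA, against 66.6, 105 and 80.3 CPM with scrambled siRNA. The pair gave log2 fold changes of -0.37 (Mrpl46, edgeR adjusted p = 0.0521) and -0.38 (Mrps11, edgeR adjusted p = 0.0527) without ATP, and fell by 0.46 (edgeR adjusted p = 0.0175) and 0.82 (edgeR adjusted p = 0.000376) with it. The Mrpl46 call with ATP was lost without scrambled replicate 2 or ATP replicate 3. Mrpl46 was chosen for this pairing after its values were seen.

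With TDP-43 siRNA and ATP, most of the large subunit and many small-subunit members were lower than with scrambled siRNA. This comparison uses the same scrambled libraries as the one above. Of 38 Mrpl members 25 fell and 0 rose in edgeR's test, where 20.0% of all tested genes fell and 17.4% rose. Of 28 Mrps members 12 fell and 1 rose. The 37 falls were 56.1% of the members. DESeq2 also called 0 Mrpl rises, and 0 had a positive fold change at an unadjusted p under 0.05. The median log2 fold change was -0.44 for Mrpl and -0.30 for Mrps, against 0.014 for all tested genes. Scaled by total counts these were -0.22, -0.077 and 0.24. Negative fold changes were seen in 37 of 38 Mrpl and 19 of 28 Mrps members, and the ATP libraries all lay below the scrambled ones for 33 of 66 members and all above for 4, against 24.1% and 24.7% of all tested genes.

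**Figure D3:**
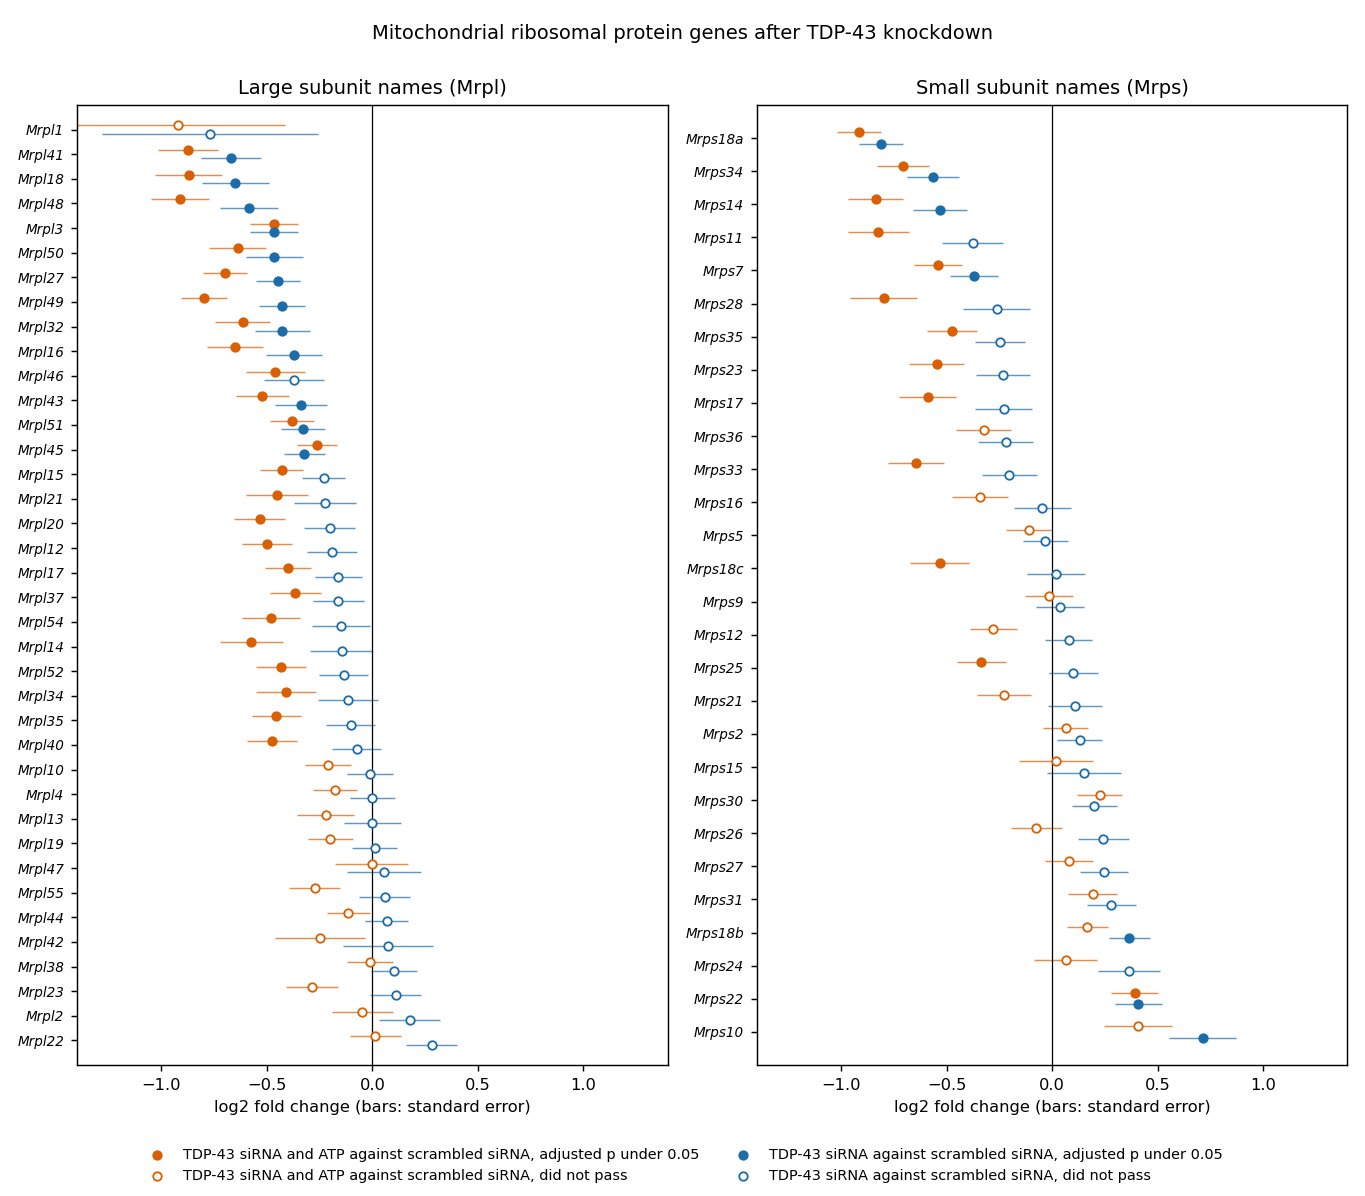
Log2 fold change (x axis, ± SE) of the 38 Mrpl and 28 Mrps members for TDP-43 siRNA and ATP (orange) and TDP-43 siRNA (blue), each against scrambled siRNA, ordered by the value without ATP. Filled points passed edgeR's adjusted p of 0.05: 25 Mrpl and 12 Mrps members fell with ATP, and 12 and 4 without. Of the Mrps members 1 rose with ATP and 3 without. Mrpl1 has the widest error (0.51). Scaled by total counts, 9 Mrpl and 9 Mrps members fell with ATP, and 4 and 3 without. Under that scaling 7 Mrps members rose with ATP, and 9 Mrps members and 1 Mrpl member without.

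The members that fell without ATP were among those that fell with it: all 12 Mrpl and all 4 Mrps. A further 13 Mrpl and 8 Mrps members passed only in the comparison with ATP, and 13 of each subunit's members passed in neither. The falls with ATP ran from -0.91 to -0.26 on the log2 scale for Mrpl and from -0.91 to -0.33 for Mrps. Mrpl49 had 50.4, 47.6 and 41.5 CPM with TDP-43 siRNA and ATP, and 63.6, 55.9 and 60.6 CPM with TDP-43 siRNA, against 84.2, 72.4 and 85.6 CPM with scrambled siRNA. The 3 groups did not overlap, and its log2 fold change with ATP was -0.80 (SE 0.11, edgeR adjusted p = 5.23e-05). Mrpl48 gave -0.91 (edgeR adjusted p = 0.000101), Mrpl41 -0.87 (edgeR adjusted p = 0.000214), Mrpl18 -0.87 (edgeR adjusted p = 0.00053) and Mrpl27 -0.70 (edgeR adjusted p = 9.24e-05).

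Several small-subunit members passed with ATP whose knockdown value had not. Mrps28 had 14.3, 13.5 and 11.8 CPM with TDP-43 siRNA and ATP, and 19.1, 20.1 and 18.3 CPM with TDP-43 siRNA, against 17.8, 24.8 and 26.9 CPM with scrambled siRNA. Its ATP libraries lay below all others, whereas the TDP-43 siRNA libraries lay between scrambled replicate 1 and the other 2 scrambled libraries (log2 -0.80 with ATP, edgeR adjusted p = 0.00113). Mrps33 had 91.6, 86.9 and 86.0 CPM with TDP-43 siRNA and ATP, and 126, 122 and 111 CPM with TDP-43 siRNA, against 105, 151 and 159 CPM with scrambled siRNA (log2 -0.65 with ATP, edgeR adjusted p = 0.00128). Mrps14, which had already passed without ATP, was at 86.8, 73.6 and 78.9 CPM with ATP, below both other groups (log2 -0.84 against scrambled siRNA, edgeR adjusted p = 0.000146).

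Mrpl12 forms the stalk that recruits translation factors and has been found bound to the mitochondrial RNA polymerase in human cells. It had 163, 143 and 129 CPM with TDP-43 siRNA and ATP, and 174, 168 and 196 CPM with TDP-43 siRNA, against 179, 226 and 210 CPM with scrambled siRNA. The ATP libraries lay below all others, and the TDP-43 siRNA libraries overlapped the scrambled ones. Mrpl12 gave log2 fold changes of -0.19 (edgeR adjusted p = 0.225) without ATP and -0.50 (edgeR adjusted p = 0.00357) with it, the second lost under total-count scaling (-0.28). Mrpl44, which resembles a bacterial RNA-cutting enzyme, gave 0.067 (edgeR adjusted p = 0.645) and -0.12 (edgeR adjusted p = 0.402), the value with ATP turning to 0.11 under total-count scaling. Mrps12, of the decoding centre, gave 0.079 (edgeR adjusted p = 0.618) and -0.28 (edgeR adjusted p = 0.0625).

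Of the 38 members called with ATP, 29 were called in all 9 fits that left out 1 library. Without scrambled replicate 1, 28 Mrpl and 16 Mrps members fell and 1 Mrps member rose. Without scrambled replicate 2 or 3, 2 Mrps members rose. With total-count scaling, 9 Mrpl and 9 Mrps members fell and 7 Mrps members rose, while over all tested genes 4099 rose and 1400 fell in place of 2106 and 2415.

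The comparison of the 2 knockdown groups asks what ATP added, and the scrambled libraries entered it only through the shared spread, filter and scaling. In edgeR's test 0 of 66 members passed in either direction, where 0.141% of all tested genes fell and 0.926% rose. At an unadjusted p under 0.05, 26 members had negative fold changes and 0 had positive ones, where 719 and 804 of the 12096 tested genes did. DESeq2 called 2 Mrpl and 4 Mrps members lower and 0 higher, where it called 166 of all tested genes lower and 270 higher. The median log2 fold change was -0.22 for Mrpl and -0.26 for Mrps, against -0.00075 for all tested genes, and 36 of 38 Mrpl and 27 of 28 Mrps values were negative. Scaled by total counts these medians were -0.17, -0.21 and 0.054. The ATP libraries all lay below the TDP-43 siRNA libraries for 36 members and above for 0, against 12.7% and 13.0% of all tested genes. Fitted on the 6 libraries alone, 10 Mrpl and 10 Mrps members were lower, where over all tested genes 386 were lower and 431 higher. Without scrambled replicate 1 in the shared spread, 2 Mrpl and 7 Mrps members were lower.

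Mrps18c had the most negative value of this comparison. It stood at 33.2, 29.9 and 29.7 CPM with TDP-43 siRNA and ATP, against 43.4, 52.9 and 40.1 CPM with TDP-43 siRNA, and at 36.7, 50.5 and 47.7 CPM with scrambled siRNA. The ATP libraries were the 3 lowest of the 9, and the other groups overlapped. Its log2 fold change with against without ATP was -0.55 (SE 0.14, edgeR adjusted p = 0.0726), with an adjusted p between 0.0115 and 0.359 over the alternatives tried, and it passed in DESeq2, in the fit on 6 libraries and without scrambled replicate 1. Mrpl45 had the most positive value, 0.059 (SE 0.10, edgeR adjusted p = 0.881). It had 99.5, 94.3 and 90.6 CPM with TDP-43 siRNA and ATP, and 87.2, 93.2 and 92.8 CPM with TDP-43 siRNA, against 112, 122 and 107 CPM with scrambled siRNA. The 2 knockdown groups overlapped and both lay below the scrambled one.

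Within the ATP group, replicate 1 was the highest for 34 of 38 Mrpl and 24 of 28 Mrps members, with a median log2 difference of 0.17 and 0.14 from the mean of the other 2, against 0.0048 for all tested genes. Its sums were still below those of all TDP-43 siRNA libraries.

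Names do not always give a protein's place. Mrps30, like Mrps18a, sits in the large subunit in mammalian structures, and Mrps36 is now assigned to the alpha-ketoglutarate dehydrogenase complex, an enzyme of the citric acid cycle. Mrps30 had 56.2, 53.3 and 53.6 CPM with TDP-43 siRNA and ATP, and 49.3, 59.3 and 51.9 CPM with TDP-43 siRNA, against 46.0, 49.9 and 43.7 CPM with scrambled siRNA, and did not pass (log2 0.20 and edgeR adjusted p = 0.157 without ATP, log2 0.23 and edgeR adjusted p = 0.106 with it). Mrps36 did not pass either (log2 -0.22 without ATP and -0.32 with it). Counted by position, the large subunit had 13 falls and 0 rises among 40 members after knockdown and 26 falls and 0 rises with ATP. The small subunit had 3 falls and 3 rises among 25 members after knockdown and 11 falls and 1 rise with ATP. Split by number, the 36 members that share a number with bacterial ribosomal proteins had 8 falls (22.2%) and 2 rises (5.56%) after knockdown, and the 30 numbered above had 8 falls (26.7%) and 1 rise (3.33%), where 18.2% of all tested genes fell and 16.2% rose. With ATP the 36 had 19 falls and 0 rises, and the 30 had 18 falls and 1 rise, where 20.0% of all tested genes fell and 17.4% rose.

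Of 7 tested genes for mitochondrial ribosomal proteins with other names, 2 fell and 1 rose after knockdown, where 18.2% of all tested genes fell and 16.2% rose. With ATP 3 fell and 0 rose, where 20.0% of all tested genes fell and 17.4% rose. Aurkaip1, a small-subunit protein, had 91.0, 85.1 and 85.1 CPM with TDP-43 siRNA and ATP, and 102, 96.6 and 110 CPM with TDP-43 siRNA, against 129, 153 and 158 CPM with scrambled siRNA (log2 -0.75 with ATP, edgeR adjusted p = 5.23e-05, and -0.51 without, edgeR adjusted p = 0.00139). Every ATP library was below every TDP-43 siRNA library, and these below every scrambled one. Gadd45gip1, a large-subunit protein, fell by 0.86 with ATP (edgeR adjusted p = 0.000277) and by 0.45 without (edgeR adjusted p = 0.0234), the call without ATP being lost without scrambled replicate 2 or 3 or TDP-43 siRNA replicate 1 or 2, and with total-count scaling (-0.28). Chchd1, of the small subunit, fell by 0.46 with ATP (edgeR adjusted p = 0.0126), a call lost without scrambled replicate 3 or ATP replicate 3, and with total-count scaling (-0.24). Ptcd3, an RNA-binding protein of the small subunit, rose without ATP (log2 0.43, edgeR adjusted p = 0.00374). Dap3, a GTP-binding small-subunit protein, gave 0.11 without ATP and -0.077 with it, the peptidyl-tRNA hydrolase Ict1 gave 0.017 and -0.19, and Mrp63 gave 0.061 and -0.39, and these 3 did not pass. The lower-case symbols mrpl9, mrpl11 and mrpl24 were outside the rule, and of these mrpl11 fell with ATP (log2 -0.41, edgeR adjusted p = 0.013).

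Genes that build or serve the ribosome were called at shares near or below those of all tested genes. Of 22 tested assembly genes, 2 fell (9.09%) and 4 rose (18.2%) after knockdown, and 4 fell (18.2%) and 3 rose (13.6%) with ATP. Rpusd3, a pseudouridine synthase of mitochondrial RNA, fell by 1.24 with ATP (edgeR adjusted p = 1.84e-05) and by 0.75 without (edgeR adjusted p = 0.00146). Malsu1, which keeps an unfinished large subunit from joining, fell by 0.70 with ATP and by 0.57 without, while Gtpbp10, a GTPase of large-subunit assembly, rose by 0.58 with ATP and 0.69 without, and Mrm1, which methylates the large ribosomal RNA, rose by 0.69 and 0.73. Of 14 translation and message-stability factors, 1 fell and 1 rose after knockdown (7.14% each), and 2 fell and 2 rose with ATP (14.3% each). Lrpprc, which stabilises mitochondrial messages, rose by 0.30 with ATP and 0.33 without, and its partner Slirp fell with ATP (log2 -0.47, edgeR adjusted p = 0.0152) but gave -0.061 without it. The Slirp call was lost with total-count scaling (-0.25) and without scrambled replicate 2 or 3 or ATP replicate 2 or 3. The Lrpprc call was lost without TDP-43 siRNA replicate 3 and in the fit on 6 libraries after knockdown, and without ATP replicate 1 or 2 with ATP.

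Of 17 mitochondrial tRNA-charging genes, 1 fell and 5 rose after knockdown, with a median log2 fold change of 0.30, and 1 fell and 3 rose with ATP, with a median of 0.15. The rises were 29.4% of the list after knockdown and 17.6% with ATP, where 16.2% and 17.4% of all tested genes rose. Without scrambled replicate 1, 7 rose after knockdown and 5 with ATP. Tars2, which charges threonine tRNA, had 60.02, 61.1 and 54.6 CPM with TDP-43 siRNA and ATP, and 57.0, 55.5 and 65.4 CPM with TDP-43 siRNA, against 43.0, 43.6 and 43.0 CPM with scrambled siRNA. All knockdown libraries lay above all scrambled ones (log2 0.44 with ATP, edgeR adjusted p = 0.00342, and 0.46 without, edgeR adjusted p = 0.00293). Of 8 genes of mitochondrial transcription and DNA upkeep, 3 rose in each comparison (37.5%) and 0 fell, in edgeR, 1 having a negative value at an unadjusted p under 0.05 with ATP and 0 without. Polrmt, the mitochondrial RNA polymerase, had 24.7, 23.9 and 23.9 CPM with TDP-43 siRNA and ATP, and 24.4, 25.4 and 25.6 CPM with TDP-43 siRNA, against 16.1, 13.4 and 18.4 CPM with scrambled siRNA (log2 0.59 with ATP, edgeR adjusted p = 0.00264, and 0.65 without, edgeR adjusted p = 0.00155). Of 10 regulators of mitochondrial biogenesis, 1 fell and 3 rose in each comparison, where 16.2% of all tested genes rose after knockdown and 17.4% with ATP: Myc, Pprc1 and Gabpa rose, Ppargc1b fell, while Nrf1 (log2 0.15 with ATP and 0.062 without) and Yy1 (log2 0.33 with ATP and 0.29 without) did not pass. Ppargc1b stood at only 1.13 to 4.90 CPM, and its call was lost under some alternatives in both comparisons. The Gabpa call after knockdown was lost under some alternatives too. Nrf1 and Yy1 are named for the motifs above, after their values were seen.

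With ATP, larger shares of the cytosolic ribosome (90.5%) and the respiratory chain (75.7%) fell than of the mitochondrial ribosome (56.1%), where 20.0% of all tested genes fell. Of 74 tested cytosolic ribosomal protein genes, 21 fell and 0 rose after knockdown (median log2 -0.31), and 67 fell and 0 rose with ATP (median -0.75). At an unadjusted p under 0.05, 0 of them had positive values in either comparison. Of 74 nuclear respiratory chain genes, 11 fell and 1 rose after knockdown (median -0.23), and 56 fell and 1 rose with ATP (median -0.51). The falls after knockdown were 28.4% of the cytosolic list and 14.9% of the respiratory list, the second below the 18.2% of all tested genes. Rises were 16.2% of all tested genes after knockdown and 17.4% with ATP. Without scrambled replicate 1 the falls after knockdown were 48 (64.9%) and 38 (51.4%), where 19.3% of all tested genes fell. Cytosolic ribosomal sums were 70464, 58552 and 57493 CPM with TDP-43 siRNA and ATP, and 84067, 88277 and 75596 CPM with TDP-43 siRNA, against 87982, 124074 and 101492 CPM with scrambled siRNA. In that sum too the ATP libraries were the lowest and scrambled replicate 2 the highest. These lists were not tested against the mitochondrial ribosome.

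**Figure D4:**
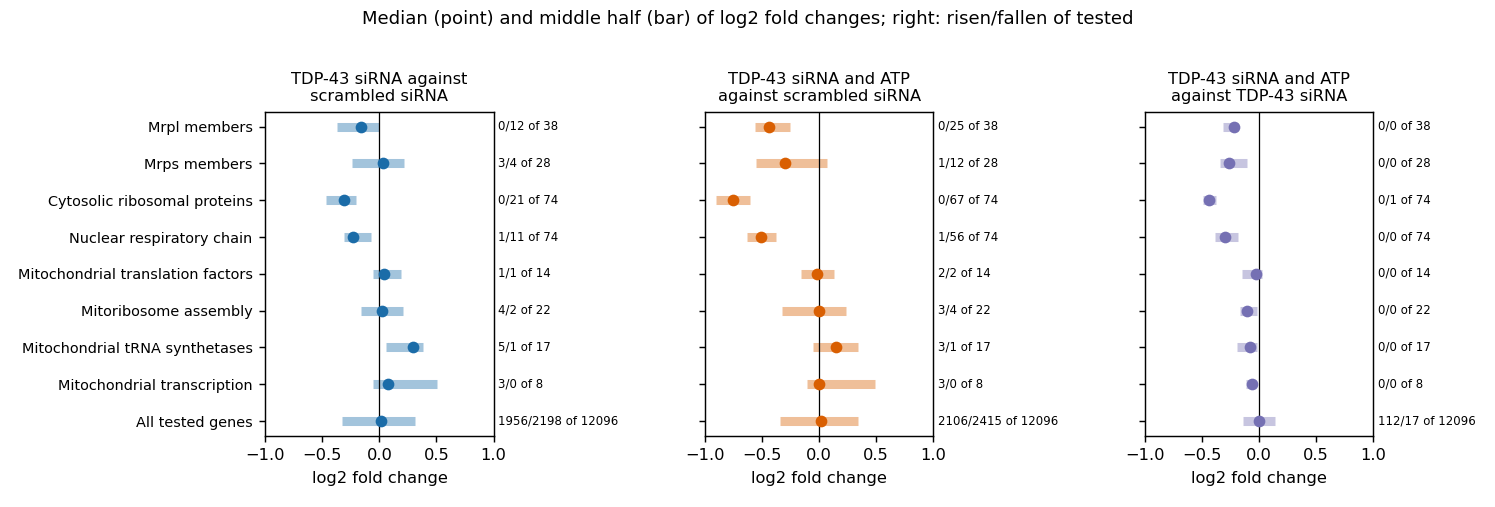
Median (points) and interquartile range (bars) of the log2 fold changes (x axis) of each gene list in the 3 comparisons, with the number risen, then fallen, of those tested. Given as knockdown against scrambled siRNA, knockdown with ATP against scrambled siRNA, and with ATP against without, medians for Mrpl are -0.16, -0.44 and -0.22, for cytosolic ribosomal proteins -0.31, -0.75 and -0.43, and for tRNA-charging genes 0.30, 0.15 and -0.075. Scaled by total counts, the Mrpl medians were 0.0098, -0.22 and -0.17.

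Some cell type markers differed between the groups too. For the counts below, 18.2% of all tested genes fell and 16.2% rose after knockdown, and 20.0% fell and 17.4% rose with ATP. Of 10 fibroblast, mural and endothelial markers 7 were tested and 5 fell in each comparison with scrambled siRNA. Col1a2 and Cldn5 were listed at 0 and Rgs5 had 2 counts in all. The 7 tested markers summed to 1571 to 1615 CPM with TDP-43 siRNA and ATP and 1273 to 1883 CPM with TDP-43 siRNA, against 3935 to 5238 CPM with scrambled siRNA. Acta2 alone made up most of the sum with scrambled siRNA. Of 10 microglia markers 2 fell and 0 rose after knockdown, and 2 fell and 2 rose with ATP. Of 10 oligodendrocyte markers 3 fell and 3 rose after knockdown, and 1 fell and 2 rose with ATP. Of 9 tested neuron markers 3 fell and 3 rose after knockdown, and 2 fell and 2 rose with ATP. Of 11 astrocyte markers 5 fell and 1 rose after knockdown, and 4 fell and 1 rose with ATP. Aqp4, the water channel of astrocyte end-feet, fell by 0.67 with ATP and by 1.14 without, and the glutamate transporter Slc1a2 rose by 2.34 with ATP and 2.14 without. The astrocyte markers, Gfap making up much of the sum, summed to 5060 to 5807 CPM with TDP-43 siRNA and ATP and to 4459 to 5571 CPM with TDP-43 siRNA, against 5753 to 6991 CPM with scrambled siRNA. The part of cell makeup in the members' values was not tested. Scrambled replicate 1 had the highest level of Acta2, a mural marker, at 4004 CPM, against 2797 and 2861 CPM in scrambled replicates 2 and 3.

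In RefSeq 13 of the 65 members it lists overlap another protein-coding gene, among them Mrpl16, Mrpl27, Mrpl43, Mrpl48, Mrpl49 and Mrps12, whose values above may hold reads of the neighbour, since the use of strand in counting is not given in the sources used here. Mrpl43 overlaps Twnk, the mitochondrial DNA helicase, which stands in the table as Peo1. Peo1 rose (log2 0.47 without ATP, edgeR adjusted p = 0.0139, and 0.51 with it, edgeR adjusted p = 0.00821) while Mrpl43 fell (log2 -0.34 without ATP, edgeR adjusted p = 0.0446, and -0.52 with it, edgeR adjusted p = 0.0039). The rise of Peo1 without ATP was lost without TDP-43 siRNA replicate 2. The fall of Mrpl43 without ATP passed in 1 of the 9 fits that each left out a library.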

How the data were processed

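Poly(A) RNA libraries of 3 groups of 3 samples were measured. The authors deposited raw counts per gene symbol in a table of the whole series. Per the submitters' processing notes, Trimmomatic, TopHat2, Bowtie2 and DESeq2 were used with build rn6, and versions, the counting tool, its use of strand and its treatment of reads with several matches are not stated in the sources used here. Of 17337 rows, 26 carried dates in place of symbols (0.286 to 0.331% of counts) and were left out. Gene members and lists were chosen with earlier results of these data known.

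The counts were tested with edgeR 4.0.16 in R 4.3.3 (filterByExpr, TMM factors, quasi-likelihood fit over all 9 libraries, Benjamini-Hochberg adjustment over 12096 genes, threshold 0.05). The procedure was run on simulated counts with the same spread for every gene and group and with balanced rises and falls. That run does not check calls where spread differs between groups or where scaling matters, as here. Groups come from the sample titles and labels. CPM are not divided by gene length, so levels are compared within a gene only. Depth was 11485173 to 40286765 counts, and with 3 libraries a group the smallest exact two-sided permutation p is 0.1.

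Named members were the called ones with the lowest adjusted p, by subunit and direction, the extremes of each comparison and 10 members named whatever their result. In other lists they were the called genes with the lowest adjusted p, and every mitochondrial ribosomal gene with another symbol. Alternatives were RLE, upper-quartile and total-count scaling, DESeq2 1.42.0, other filters, a replicate block, fits on 6 libraries and leaving out each library. Adding the lower-case symbols, and all lists without scrambled replicate 1, were chosen after seeing the data. Promoter windows came from RefSeq (GRCr8) by symbol, and 65 of 66 members were listed there. Figures were drawn in Python 3.11.15. Genes encoded by mitochondrial DNA and protein sequences were not analysed here.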

Additional observations from a re-analysis of the deposited data

How the results depend on the processing

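The values rest on 3 libraries a group, scrambled replicate 1 stands apart, and ATP without knockdown was not analysed here. With total-count scaling, Mrpl members after knockdown gave 1 rise, 4 falls and a median of 0.0098, and Mrps members 9 rises and a median of 0.20, where all genes had 0.18. With ATP the same scaling gave 9 Mrpl falls (median -0.22), 7 Mrps rises (median -0.077) and 0.24 for all genes, and ATP against no ATP gave 0.054 for all genes. It also turned Chchd1 without ATP to 0.021 and, with ATP, Mrpl44 to 0.11, Dap3 to 0.15 and Ict1 to 0.034. Upper-quartile factors gave all-gene medians of 0.027 after knockdown, 0.043 with ATP and 0.013 between them, and 2 Mrps rises with ATP. RLE factors and DESeq2 each gave an all-gene median of -0.0030 for ATP against no ATP, where DESeq2 called 2 Mrpl and 4 Mrps falls. Fits on 6 libraries gave all-gene medians of -0.0077 after knockdown and 0.0035 for ATP against no ATP, where 10 Mrpl and 10 Mrps members fell, and turned Ict1 after knockdown to -0.00079.

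Among numbers shared with bacterial ribosomes, 5 Mrpl members fell after knockdown, and with ATP 13 Mrpl and 6 Mrps members fell and 0 Mrps rose. Among higher numbers, 7 Mrpl and 1 Mrps fell and 1 Mrps rose after knockdown, and 12 Mrpl and 6 Mrps fell with ATP. Sums on total counts were 2962 CPM (Mrpl) and 1941 CPM (Mrps) with TDP-43 siRNA and 1688 CPM (Mrps) with ATP added. Without the most abundant member they were 2684, 1750 and 1471 CPM. The lower sums after knockdown did not hold in unscaled shares of gene counts. There all members took 0.493, 0.485 and 0.493% with TDP-43 siRNA, against 0.428, 0.522 and 0.513% with scrambled siRNA. The TDP-43 siRNA shares thus lay inside the scrambled range.

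Leaving out 1 library at a time gave 0 to 1 Mrpl rises, 7 to 17 Mrpl falls, 2 to 5 Mrps rises and 3 to 11 Mrps falls after knockdown, and 1 to 2 Mrps rises with ATP. For ATP against no ATP it gave 0 to 2 Mrpl and 0 to 7 Mrps falls, a Mrpl median of -0.30 to -0.16 and an all-gene median of -0.0034 to 0.0035. Fold changes that changed sign without passing were those after knockdown of Mrps18c (-0.11 to 0.11, and -0.096 without TDP-43 siRNA replicate 2), Mrps12 (-0.020 to 0.19), Ict1 (-0.071 to 0.11, and -0.046 without scrambled replicate 1) and Mrp63 (-0.14 to 0.19), and that of Tardbp for ATP against no ATP (-0.034 to 0.22, and -0.00072 without ATP replicate 2). The causes were not tested. Of 2070 fold changes of single genes under alternatives, 1939 kept direction and side of the threshold, 97 no longer passed, 23 newly passed and 11 changed sign.

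Deviations of same-numbered libraries of different groups correlated at -0.15 to 0.12, and those of differently numbered ones at -0.10 to 0.17. With 3 libraries a group, this cannot tell whether the samples were paired. With the replicate block, 9 Mrpl members fell after knockdown and 24 with ATP, and 0 members passed for ATP against no ATP. Mrps members gave 3 rises and 4 falls after knockdown and 1 rise and 11 falls with ATP.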
